A study of Mus musculus with 18 samples.

Results

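Loss of CTBP1 and CTBP2 was examined in J774.1 cells without inhibitor by comparing the 3 dKO vehicle samples with the 3 wildtype vehicle samples of an RNA-seq series of 18 samples. J774.1 is a mouse macrophage cell line. These 6 samples were chosen by their genotype and treatment labels, and the other 12 received MTOB (1.5 mM) or 4-Cl-HIPP (0.25 mM), substrate-competitive inhibitors of the CTBP dehydrogenase domain. All cells, of either genotype, were given vehicle (PBS/DMSO) or inhibitor for 4 h before RNA was taken. The dKO cells were edited in both Ctbp1 and Ctbp2 by electroporation of Cas9 with a pair of guide RNAs per gene, which the study describes as giving premature stops and frameshifts, and were grown out from single cells, so that an effect of genotype and a difference between clones cannot be told apart. The study's methods mention clones typed as wildtype as well as knockout, but not whether the wildtype samples were such a clone or the parental line. The triplicates are described as biological, but nothing says that they came from separate clones or days. P-values here measure only the spread within the triplicates of all 18 samples, which were fitted together.

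CTBPs are co-repressors. They do not bind DNA directly but are brought to genes by transcription factors that carry a short docking motif, such as ZEB and Krüppel-like factors, and they in turn bring in CoREST complexes with histone deacetylases and the lysine demethylase KDM1A. Their dehydrogenase domain binds NAD+ and NADH. In macrophages CTBPs have been tied to the repression of inflammatory genes.

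The table holds gene expression as length-normalized transcript abundance (TPM), which keep no read depth, so that the depth behind a value is unknown. TPM summed to between 999766 and 999897 in each sample over the 18204 genes listed. Pearson correlations of log2(TPM + 1) over 9287 genes were 0.989 to 0.991 between samples of the same genotype and 0.971 to 0.974 between genotypes. Macrophage markers were present in every sample, with Csf1r (macrophage colony-stimulating factor receptor) at 896 ± 48.7 TPM in wildtype and 860 ± 26.4 in dKO cells (SD, n = 3 each) and Lyz2 (lysozyme) at 520 ± 14.2 and 488 ± 7.43. The sum of 12 macrophage markers was 3681 to 3776 TPM in wildtype and 3402 to 3425 in dKO samples. Of markers of other cells, the 4 T and NK cell markers listed summed to 2.59 to 4.99 TPM in wildtype and 1.03 to 2.43 in dKO samples, and the 7 dendritic cell markers to 1.74 to 3.79 and 2.20 to 3.25. Granulocyte and fibroblast markers (3 listed of each) summed to 0.35 TPM or less in each of the 6 samples, and the 6 erythroid and megakaryocyte markers to 1.53 or less. The 4 B cell markers listed summed to 122 to 128 TPM in wildtype and 65.8 to 72.9 in dKO samples, nearly all of it from Ighm. The 12 neuronal genes listed summed to 8.57 to 10.4 TPM and 3.03 to 6.03, of which Syt11 gave 7.21 to 8.98 and 1.09 to 2.31, and the 10 epithelial genes to 4.68 to 6.01 and 6.58 to 8.63. The part of these differences in the results that follow was not tested.

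The targeted exons are shown first, because the RNA of the targeted genes has to be read against them. Both guides for Ctbp1 cut in the introns on either side of exon 3, with predicted cleavage sites 255 bases apart that enclose all 145 bases of the exon. For Ctbp2, 1 guide cuts inside coding exon 2 and the other in the next intron, 163 bases apart, with 142 of the 155 exon bases between them. Neither exon length is a multiple of 3. The stretches below are read from GRCm39 on the strand of the gene (minus in both cases), 5′ to 3′, and capitals mark the guide targets with their PAM.
Ctbp1 exon 3, chr5:33418318-33418584: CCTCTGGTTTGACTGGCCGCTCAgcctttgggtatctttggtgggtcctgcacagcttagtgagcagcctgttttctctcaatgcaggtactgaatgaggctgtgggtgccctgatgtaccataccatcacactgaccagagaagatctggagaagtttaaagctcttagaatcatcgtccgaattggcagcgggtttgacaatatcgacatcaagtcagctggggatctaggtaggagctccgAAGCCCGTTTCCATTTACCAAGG
Ctbp2 exon 2, chr7:132600893-132601074: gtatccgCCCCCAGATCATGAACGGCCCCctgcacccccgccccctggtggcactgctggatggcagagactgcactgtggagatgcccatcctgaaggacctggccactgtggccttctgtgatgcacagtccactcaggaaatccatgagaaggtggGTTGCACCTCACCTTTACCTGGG

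Ctbp1 RNA fell strongly in dKO cells, whereas Ctbp2 RNA was only slightly lower. Ctbp1 (ENSMUSG00000037373, chromosome 5, minus strand) was at 212, 238 and 204 TPM in the wildtype and at 24.4, 25.2 and 25.6 TPM in the dKO samples. The groups lay far apart, differing by −3.07 on the log2 scale (SE 0.13, adjusted p = 1.61e-10 by limma). Ctbp2 (ENSMUSG00000030970, chromosome 7, minus strand) was at 87.8, 93.2 and 96.9 TPM in wildtype and 73.5, 74.9 and 79.4 TPM in dKO samples. These groups did not overlap either, but the log2 difference was −0.28 (SE 0.06, adjusted p = 0.00427 by limma), below the 1.5-fold limit used for calls. A gene-level TPM counts reads over the whole transcript, so a change within 1 exon of Ctbp2 need not be visible in it, and the Ctbp2 value checks neither the edit nor the protein. The study itself reports loss of both proteins by western blot, and typed its clones by PCR and sequencing. Whether the stretch between the guides was deleted was not measured here.

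**Figure D1:**
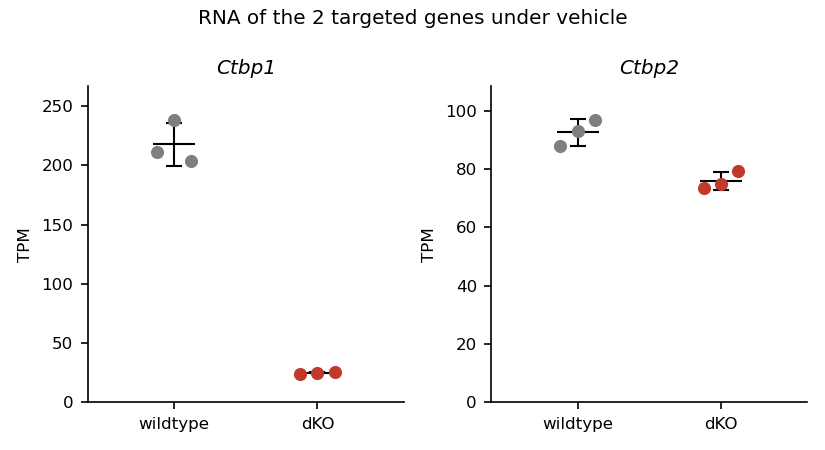
TPM of Ctbp1 and Ctbp2 in each wildtype vehicle (grey) and dKO vehicle (red) sample, with the mean and SD as black bars (n = 3). Ctbp1 fell from between 204 and 238 TPM to between 24.4 and 25.6, while Ctbp2 stayed at 73.5 TPM or more in dKO cells.

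Of 16383 genes tested, 792 (4.83%) were called between dKO and wildtype cells, at an adjusted p below 0.05 and a fold change above 1.5. More genes were higher than lower in dKO cells, with 538 (3.28%) called higher and 254 (1.55%) called lower. The median log2 fold change of all genes was 0.01, and 8603 of them lay above 0. At an unadjusted limma p below 0.05 were 3502 of the 16383 genes, in either direction. Counts at that p for the gene lists below are to be read beside this number. Likewise, counts of calls in those lists are to be read beside the 3.28% called higher and 1.55% called lower. Most differences were modest, since 269 of the higher genes had a log2 fold change below 1 and 14 one above 3, and of the lower genes 144 and 7. TPM did not overlap between the groups for 4270 genes (26.1%), 2467 above wildtype (15.1%) and 1803 below (11%), and for 790 of the 792 genes called. Among the genes called, 713 were protein coding. At 0 TPM in every wildtype sample were 31 of the higher genes, and 29 of the lower genes were listed at 0 in every dKO sample. Expression was low for part of the calls, as the mean of the higher group was under 5 TPM for 154 higher and 95 lower genes. A pseudocount of 5 in place of 1, which shrinks low genes, left 426 calls, 316 higher and 110 lower.

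**Figure D2:**
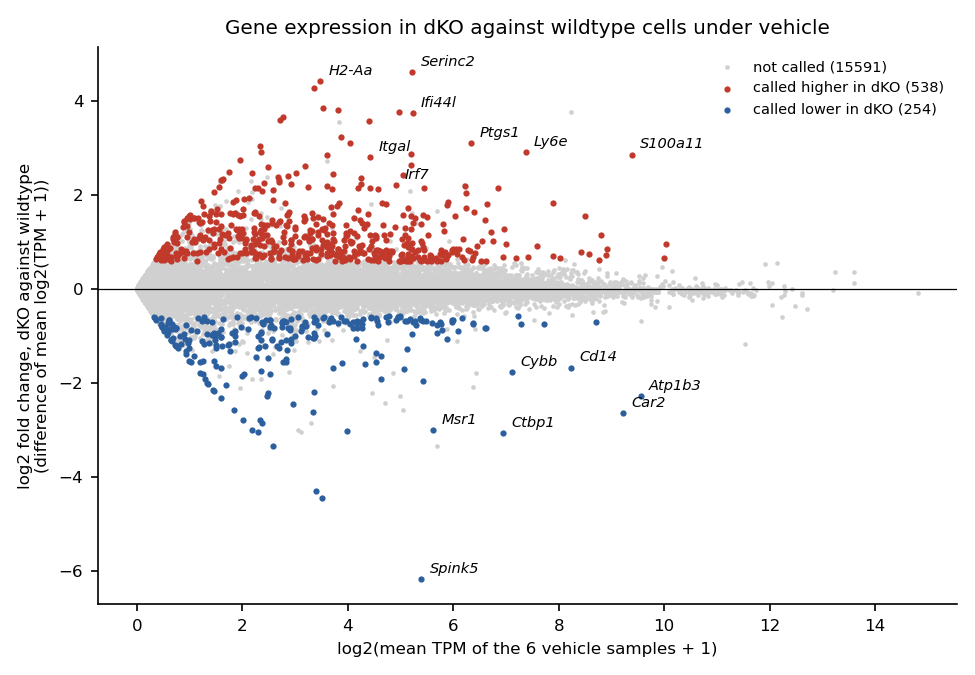
Log2 fold change of dKO against wildtype (difference of mean log2(TPM + 1), y axis) against the log2 mean TPM of the 6 vehicle samples plus 1 (x axis) for 16383 genes. Red and blue points are the 538 genes called higher and the 254 called lower in dKO cells, and genes at 0 in a whole genotype form the outer edges at low expression.

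The genes that fell furthest included membrane and secreted proteins of macrophages. Spink5, a serine protease inhibitor, was at 86.5, 78.4 and 80.9 TPM in wildtype and at 0.28, 0.15 and 0.05 TPM in dKO samples (log2 fold change −6.16, SE 0.07, adjusted p = 1.18e-17 by limma). Msr1, the class A scavenger receptor that takes up modified lipoproteins and bacteria, fell from 87.1, 88.4 and 81.8 to 8.94, 12.98 and 8.24 TPM (8.53-fold lower on average, adjusted p = 3.5e-10). Among highly expressed genes, Atp1b3, a beta subunit of the Na+/K+-ATPase, fell from 1246, 1227 and 1260 to 254, 256 and 260 TPM (−2.27, SE 0.03, adjusted p = 4.37e-17). In each of these 3 genes the genotypes lay far apart. Car2, a carbonic anhydrase, went from 1007, 1011 and 1054 to 158, 170 and 160 TPM (−2.65, SE 0.05). Igf1, the growth factor, was at 6.21, 8.99 and 6.02 TPM in wildtype and is listed at 0 in all 3 dKO samples. Pcdhgc3, a gamma-protocadherin, was at 21.8, 20.7 and 20.2 TPM in wildtype and is listed at 0 in the dKO samples.

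Genes of the gamma-protocadherin cluster share their last exons, so that the estimate for Pcdhgc3 is uncertain. Pcdhgb7 (0.23, 0.30 and 0.26 TPM in wildtype, 1.51, 1.06 and 0.82 in dKO) and Pcdhgc5 (0.11, 0.03 and 0.07, then 0.75, 0.81 and 1.08) of the same cluster were called higher, and neither passed 1.51 TPM in any sample. Further genes with a large fall were St3gal6, a sialyltransferase, from 27.6, 21.7 and 32.3 to 1.72, 2.65 and 3.13 TPM, and Gpr65, a proton-sensing receptor, from 12.2, 12.99 and 11.3 to 1.99, 1.50 and 0.87 TPM. Cacna1a, a calcium channel subunit, spread more in dKO cells, at 1.07, 0.84 and 4.56 TPM against 14.2, 16.4 and 17.4 in wildtype. Antxr1, Ambp, Cbr1, Rbfox1 and Galnt6 started from 5.00 to 8.65 TPM in wildtype samples and were below 0.50 TPM in each dKO sample.

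The genes that rose furthest included several with functions in leukocytes. Serinc2, a multipass membrane protein, rose from 1.53, 3.50 and 1.27 to 71.8, 71.1 and 69.2 TPM (log2 fold change 4.60, SE 0.23, adjusted p = 1.57e-09 by limma). Ptgs1, the constitutive cyclooxygenase, rose from 14.3, 15.8 and 17.97 to 148, 141 and 145 TPM (3.10, SE 0.07). At high expression, S100a11, a calcium-binding protein, rose from 176, 155 and 156 to 1211, 1181 and 1133 TPM (2.85, SE 0.05, adjusted p = 6.43e-15). These differences were many times the spread within a genotype. Ly6e, a GPI-anchored protein that is also interferon-induced, rose from 34.98, 40.2 and 39.4 to 275, 285 and 314 TPM. Fgr, a Src-family kinase of myeloid cells, rose from 2.21, 2.70 and 1.24 to 18.5, 20.4 and 22.4 TPM. Lair1, an inhibitory collagen receptor, rose from 1.56, 1.35 and 2.46 to 17.8, 26.7 and 31.6 TPM.

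Other genes were listed at 0 or close to it in wildtype samples. Padi4, which converts arginine to citrulline in histones and other proteins, was listed at 0 in all 3 wildtype samples and at 11.97, 11.9 and 9.48 TPM in dKO samples. Pla1a, a phosphatidylserine phospholipase, was likewise listed at 0 in wildtype and was at 12.1, 10.9 and 11.8 TPM in dKO cells. Ocstamp, a membrane protein needed for the fusion of osteoclasts and macrophages, rose from 0.12, 0.05 and 0.13 to 7.79, 6.98 and 9.25 TPM. For Hmgn3, a nucleosome-binding protein, the wildtype samples themselves differed, at 0, 2.60 and 0.79 TPM, but stayed below the 21.97, 28.5 and 24.7 TPM of the dKO samples. Cox4i2, an isoform of a cytochrome c oxidase subunit, rose from 1.82, 2.26 and 3.47 to 27.9, 27.8 and 29.8 TPM, and Ndrg4 from 8.39, 7.96 and 7.51 to 69.1, 58.3 and 64.1 TPM.

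**Figure D3:**
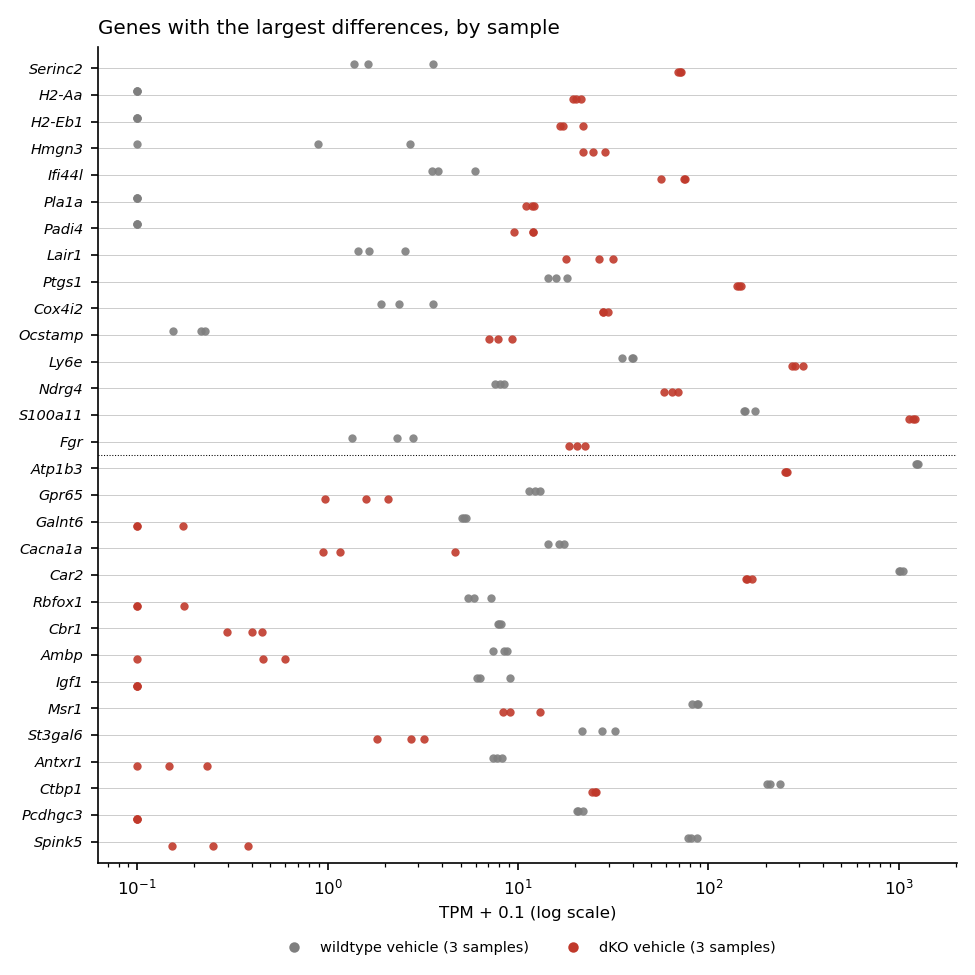
TPM plus 0.1 (log scale) in each wildtype vehicle (grey) and dKO vehicle (red) sample for the 15 genes with the largest rise (above the dotted line) and the 15 with the largest fall (below it), among called genes without overlap and with a mean of 5 TPM or more in the higher group. Points at the left edge are listed at 0 TPM.

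Interferon-induced genes were higher in dKO cells. These genes, many of them antiviral, are switched on when type I interferons signal through their receptor and its kinases. Of 66 tested on the list, 43 (65.2%) rose and 0 fell (at an unadjusted limma p below 0.05, 56 were higher and 0 lower), with a median log2 fold change of 0.91 beside 0.01 over all genes. Ifi44l led, at 5.85, 3.70 and 3.44 TPM in wildtype and 74.0, 56.6 and 75.7 TPM in dKO samples (log2 fold change 3.73, SE 0.22, adjusted p = 1.29e-08). Irf7, the transcription factor that amplifies interferon production, rose from 9.37, 10.1 and 9.55 to 44.4, 42.1 and 59.7 TPM (2.20, SE 0.16). Usp18, a feedback inhibitor of the interferon receptor, rose from 7.47, 6.32 and 6.88 to 38.7, 28.6 and 35.4 TPM (2.15, SE 0.14). In all 3 genes every dKO sample lay well above every wildtype sample.

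Isg20 (an exonuclease active against viral RNA), Rtp4 and Epsti1 also rose, with log2 fold changes of 2.40, 2.13 and 2.13. Of the transcription factors downstream of the receptor, named after their values were seen, Irf9 rose from 18.6, 18.2 and 22.4 to 32.0, 29.7 and 35.7 TPM (0.69, SE 0.08). Stat2 had a log2 fold change of 0.58, just under the limit for a call (adjusted p = 0.00116). The receptor subunit Ifnar1 was at 21.96, 22.9 and 21.7 TPM in wildtype and at 24.3, 21.4 and 23.3 TPM in dKO cells, which overlap. Ifnb1, which encodes interferon beta, was listed at 0 in all wildtype samples and at 1.04, 0 and 0.78 TPM in dKO samples, and did not pass the test (adjusted p = 0.164 by limma). Jak2, a kinase of other cytokine receptors such as that for interferon gamma and likewise named after its values were seen, rose from 10.0, 8.29 and 9.49 to 60.5, 63.8 and 62.0 TPM (2.62, SE 0.07, adjusted p = 6.44e-13). Not every member of the list passed the test, as Gbp5 had a log2 fold change of −0.04 and Iigp1 one of −0.06.

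Promoters of the interferon-induced genes that rose are shown because a short sequence known as the core of the interferon-stimulated response element was frequent in them. This core, GAAA repeated after any 2 bases, was searched on both strands from 250 bases before to 50 after the start of each gene in RefSeq promoters of GRCm38.p6, of which 10437 matched some of the 16358 tested symbols. It was present in 3.27% of all these promoters. Of the promoters of genes called higher, 9.60% held it, of those called lower 4.35%, of interferon-induced genes called higher 54.5% (18 of 33), and of the other genes called higher 5.51%. The core was not counted separately in members of the interferon list that were not called. The 54.5% therefore cannot tell a feature of the list from one of its members that rose. A match describes the letters in this window and does not show binding. Stretches of 80 bases on the strand of the gene, chosen after the values were seen from the members with a match that rose most, follow with the matches in capitals. Ddx58 (log2 fold change 1.82, 1 match) is not shown, because its stretch runs to 46 bases past the start of the gene. The Trim30a stretch runs to 8 bases past the start, and those of Rsad2, Slfn5 and Isg15 lie wholly before it.
Rsad2, chr12:26456528-26456607: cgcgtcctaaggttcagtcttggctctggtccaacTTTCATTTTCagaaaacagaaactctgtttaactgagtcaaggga
Trim30a, chr7:104465185-104465264: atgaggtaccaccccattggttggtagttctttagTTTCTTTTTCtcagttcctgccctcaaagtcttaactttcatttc
Slfn5, chr11:82951912-82951991: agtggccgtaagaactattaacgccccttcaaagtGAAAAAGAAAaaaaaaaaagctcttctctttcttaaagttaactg
Isg15, chr4:156200852-156200931: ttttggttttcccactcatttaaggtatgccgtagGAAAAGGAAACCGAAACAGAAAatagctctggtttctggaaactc

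Rsad2 (viperin, an antiviral enzyme), Trim30a, Slfn5 and Isg15 (a ubiquitin-like modifier) had log2 fold changes of 2.07, 1.77, 1.64 and 1.59. The Isg15 promoter held 3 overlapping matches and the others 1 each. Among other motifs, TGANTCA, the site of AP-1 factors, was in 5.17% of all promoters, 12.6% of those of genes called higher and 7.61% of those called lower. CACCTG, the E-box that ZEB factors bind, was in 17.1%, 19.7% and 16.8%.

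Genes for the chains of MHC class II, which present peptides to helper T cells, were listed at 0 in wildtype cells and were present in dKO cells. H2-Aa was at 21.3, 19.3 and 20.2 TPM and H2-Eb1 at 16.4, 17.1 and 21.8 TPM in dKO samples, and both are listed at 0 in all 3 wildtype samples. H2-Ab1 (2.74, 5.23 and 4.37 TPM) and H2-Ea (4.60, 3.41 and 6.17 TPM) were lower but likewise listed at 0 in each wildtype sample. H2-Aa and H2-Eb1 overlap on opposite strands, and reads from unstranded libraries cannot tell them apart there. Of 16 genes on the list, 7 (43.8%) rose and 0 fell (at an unadjusted limma p below 0.05, 9 were higher and 1 lower), with a median log2 fold change of 0.49 that depends on the pseudocount (1.37 with 0.1 and 0.33 with 5 in place of 1). The peptide-loading genes H2-DMa (3.26, 3.80 and 8.90, then 14.9, 20.4 and 12.2 TPM) and H2-DMb1 (0 in wildtype, then 1.39, 2.15 and 1.65 TPM) were among those that rose.

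Ciita, the master regulator of class II transcription, was listed at 0 in wildtype and at 0.40, 0.37 and 0.33 TPM in dKO samples, and did not pass the test (adjusted p = 0.234 by limma). Cd74, the invariant chain, was already high in wildtype cells (273, 271 and 300 TPM) and reached 351, 367 and 369 TPM in dKO cells. This difference (log2 0.37, SE 0.05, adjusted p = 0.000144) is below the limit for calls. Of 19 genes of MHC class I presentation, 4 (21.1%) rose and 0 fell (13 higher and 1 lower at an unadjusted p below 0.05 by limma). H2-T23, a non-classical class I molecule, rose from 14.6, 10.4 and 15.7 to 27.6, 24.4 and 32.9 TPM, and H2-Q7 from 4.17, 4.42 and 5.20 to 9.37, 7.68 and 9.32 TPM. The peptide transporter genes Tap1 and Tap2 also passed (log2 fold changes 0.69 and 0.69), but neither did without dKO vehicle replicate 1 (0.56 and 0.53). The abundant H2-K1, H2-D1 and B2m had log2 fold changes of 0.35, 0.35 and 0.30, below the limit.

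Integrins, the adhesion receptors that leukocytes use to bind vessel walls, matrix and complement, were higher as well. Of 14 tested, 9 (64.3%) rose and 0 fell (10 higher and 2 lower at an unadjusted p below 0.05 by limma), and the median log2 fold change was 0.89. Itgal, the alpha chain of LFA-1, rose from 3.80, 4.52 and 4.83 to 34.0, 37.3 and 38.0 TPM (2.80, SE 0.09, adjusted p = 1.28e-11). Its partner Itgb2, shared by all beta-2 integrins, rose from 55.1 ± 1.09 to 98.3 ± 10.3 TPM (SD, n = 3; 0.82, SE 0.09). Itgam, the alpha chain of complement receptor 3, rose from 20.998, 13.4 and 13.01 to 44.1, 51.3 and 48.2 TPM, and Itgb7, of gut-homing integrins, from 2.51, 1.36 and 0.78 to 10.6, 15.0 and 12.4 TPM. Itga4, the most abundant integrin gene by TPM on the list, did not follow, at 552, 506 and 549 TPM in wildtype and 375, 393 and 369 TPM in dKO cells (−0.50, SE 0.09, adjusted p = 0.000947), which is below the limit for calls.

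Receptors on the surface of myeloid cells moved in both directions. Of 25 Fc, complement and phagocytic receptors, 10 (40%) rose and 3 (12%) fell. The receptors for the complement fragments C3a and C5a both rose, C3ar1 from 1.06, 1.17 and 0.74 to 7.34, 7.20 and 7.56 TPM and C5ar1 from 5.77, 3.26 and 2.12 to 11.2, 11.2 and 14.1 TPM. Clec7a, the beta-glucan receptor dectin-1, rose from 0.46, 0.88 and 0.77 to 6.93, 3.37 and 2.79 TPM. Among those that fell besides Msr1 was Fcgr2b, the inhibitory Fc receptor for IgG, from 8.68, 10.5 and 8.26 to 3.28, 2.02 and 2.10 TPM. Of 36 inhibitory and activating leukocyte receptors, 13 (36.1%) rose and 2 (5.56%) fell (1 without wildtype vehicle replicate 1 or 2 or dKO vehicle replicate 1 or 2). They included Lair1 and the activating receptors Trem1 (from 0.07, 0.14 and 0 to 2.48, 1.92 and 3.70 TPM) and Trem3 (from 0.78, 1.91 and 0.28 to 4.99, 4.70 and 4.07 TPM). Cd300a, an inhibitory receptor, rose from 9.28, 9.84 and 11.8 to 23.2, 24.5 and 23.2 TPM, and Cd80, a co-stimulatory ligand for T cells, from 0, 0.40 and 0.62 to 2.61, 2.70 and 3.13 TPM.

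Of 14 chemokine genes tested, 5 (35.7%) were called higher and 0 lower (5 higher and 3 lower at an unadjusted p below 0.05 by limma). Over all genes, 3.28% were called higher and 1.55% lower. Ccl9 rose from 27.7, 20.5 and 29.9 to 107, 138 and 116 TPM, Ccl5 from 4.19, 3.74 and 3.82 to 13.97, 14.8 and 13.3 TPM, and Cxcl16 from 71.0, 68.6 and 71.2 to 139, 144 and 143 TPM. Of 8 chemokine receptors, Cxcr3 rose from 2.55, 3.24 and 3.57 to 18.4, 24.3 and 20.9 TPM and Ccr2 from 0.08, 0 and 0 to 0.90, 0.86 and 0.76 TPM, whereas Cx3cr1, the fractalkine receptor, fell from 120, 127 and 125 to 67.0, 73.7 and 67.2 TPM. Of 26 macrophage cytokines, 3 (11.5%) rose and 2 (7.69%) fell (9 higher and 5 lower at an unadjusted p below 0.05 by limma). Il18 rose from 24.1, 18.3 and 24.3 to 42.9, 37.8 and 48.0 TPM and Tnfsf13b (BAFF) from 2.42, 2.08 and 1.05 to 6.25, 7.73 and 4.93 TPM, while Tnf fell from 73.6, 62.2 and 60.05 to 38.4, 37.6 and 42.8 TPM.

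Of 14 genes of eicosanoid synthesis, 3 (21.4%) rose and 0 fell (5 higher and 2 lower at an unadjusted p below 0.05 by limma). Besides Ptgs1, Alox5, which makes leukotriene A4, rose from 8.15, 10.1 and 9.98 to 55.1, 53.2 and 55.2 TPM (2.42, SE 0.11, adjusted p = 3.5e-10). Ltc4s, leukotriene C4 synthase, rose from 4.39, 3.92 and 2.34 to 15.6, 9.34 and 6.28 TPM, but not without wildtype vehicle replicate 3 or dKO vehicle replicate 1 (largest adjusted p = 0.0744). Ptgs2, the inducible cyclooxygenase, was at 2.77 ± 0.97 TPM in wildtype and 2.93 ± 0.37 in dKO cells (SD, n = 3, adjusted p = 0.834 by limma).

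Semaphorin, plexin and guidance genes included 6 that rose of 27 (22.2%) and 0 that fell (9 higher and 4 lower at an unadjusted p below 0.05 by limma, and 1 called lower without dKO vehicle replicate 2). Plxnd1, a semaphorin receptor, rose from 24.0, 27.4 and 25.3 to 89.4, 88.5 and 93.2 TPM, and Epha2, an ephrin receptor, from 1.71, 2.08 and 1.249 to 10.5, 10.5 and 13.3 TPM. Of 38 genes of RGS and G-protein signalling, 5 (13.2%) rose and 1 (2.63%), Gpr65, fell (2 without wildtype vehicle replicate 3 or dKO vehicle replicate 1). Over all genes, 3.28% were called higher and 1.55% lower. S1pr1, the sphingosine 1-phosphate receptor, rose from 2.35, 1.97 and 1.99 to 11.1, 8.48 and 10.3 TPM. Of 45 actin cytoskeleton genes, 4 rose and 1 fell, the gene for the actin-severing protein gelsolin (Gsn) from 46.2, 41.4 and 42.9 to 144, 165 and 151 TPM and Actn1, an actin crosslinker, from 19.9, 20.98 and 20.8 to 61.6, 59.8 and 67.3 TPM.

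**Figure D4:**
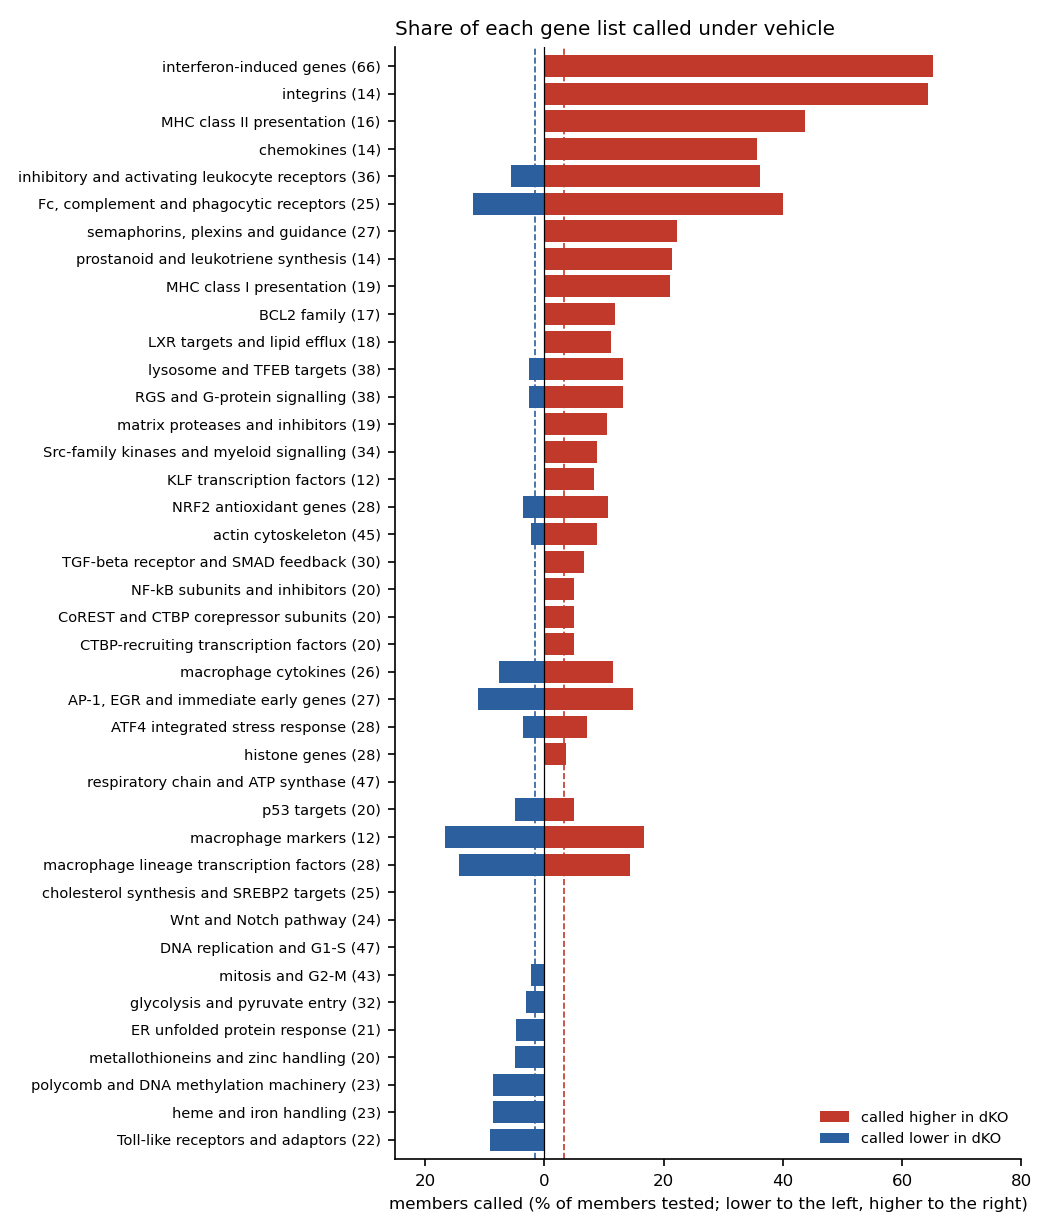
Share of the tested members of each gene list called higher (red, to the right) or lower (blue, to the left) in dKO cells, in percent, for lists with at least 10 members tested (number in brackets). Dashed lines mark the shares over all genes, 3.28% higher and 1.55% lower. Interferon-induced genes (65.2%) and integrins (64.3%) have the longest bars.

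Macrophage identity genes split. Of 12 macrophage markers, Itgam and Fcgr1 rose, and Cd14, the lipopolysaccharide co-receptor, fell from 462, 440 and 473 to 135, 145 and 149 TPM. Adgre1, which encodes F4/80, fell from 27.5, 24.6 and 35.3 to 7.94, 8.84 and 10.0 TPM. Fcgr1 (log2 fold change 0.62) was not called without wildtype vehicle replicate 2 or dKO vehicle replicate 2 (largest adjusted p = 0.0545). Spi1, which encodes the lineage factor PU.1, was at 241 ± 6.76 TPM in wildtype and 230 ± 10.2 in dKO cells (SD, n = 3, adjusted p = 0.673 by limma). Cybb, the catalytic subunit of the phagocyte NADPH oxidase, was named after its values were seen and fell from 217, 206 and 214 to 68.9, 57.1 and 58.9 TPM (−1.77, SE 0.12). Of 22 Toll-like receptors and adaptors, 0 rose (8 were higher at an unadjusted limma p below 0.05) and 2 fell, Cd14 and Tlr1.

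Macrophage lineage transcription factors also moved both ways, with 4 of 28 up and 4 down. Bhlhe40 rose from 5.71, 4.58 and 7.48 to 17.3, 17.3 and 16.5 TPM, while its paralog Bhlhe41 fell from 4.16, 3.72 and 3.98 to 1.66, 0.87 and 1.28 TPM. Ets2 fell from 49.6, 48.5 and 53.8 to 14.9, 13.2 and 16.1 TPM. In the list of immediate early genes, Fos rose from 6.87, 6.28 and 8.23 to 14.4, 12.8 and 18.4 TPM and Jun fell from 26.3, 23.4 and 21.1 to 14.4, 10.0 and 14.504 TPM. Of 3 B cell markers tested, Ighm, the immunoglobulin mu constant region, fell from 127, 128 and 121 to 65.8, 72.4 and 70.4 TPM. The defining B cell genes Cd79a and Cd79b were below 0.20 TPM on average in both genotypes. In bulk RNA, fewer cells that express a gene and less RNA per cell cannot be told apart.

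Calls among the partners of CTBPs were near the shares over all genes, 3.28% higher and 1.55% lower. Of 20 CoREST and corepressor subunits, 1 (5%) rose and 0 fell (5 higher and 2 lower at an unadjusted p below 0.05 by limma). Their median log2 fold change was −0.02. The 1 that rose, Zfp217, is a zinc finger protein of this complex and went from 18.2, 17.2 and 17.4 to 28.3, 29.2 and 28.2 TPM (0.67, SE 0.05). Kdm1a was at 82.1, 88.9 and 78.4 TPM in wildtype and 83.7, 80.9 and 78.4 TPM in dKO cells. Of 20 transcription factors known to recruit CTBPs, 1 (5%) rose and 0 fell (6 higher and 1 lower at an unadjusted p below 0.05 by limma). Without wildtype vehicle replicate 3, 2 rose. The call with all samples was Zeb2, from 25.7, 21.7 and 36.5 to 53.5, 50.4 and 61.8 TPM (0.98, SE 0.18, adjusted p = 0.00155). Klf6, a Krüppel-like factor, rose from 2.01, 2.44 and 1.86 to 6.93, 7.48 and 6.34 TPM, the only call among 12 of that family (2 without wildtype vehicle replicate 2 or dKO vehicle replicate 1). Phgdh and Grhpr, the other genes of the D-isomer specific 2-hydroxyacid dehydrogenases listed, had log2 fold changes of 0.18 (SE 0.08, adjusted p = 0.196) and 0.12 (SE 0.16, adjusted p = 0.77).

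Genes of apoptosis and of chromatin included a few large differences. Of 17 BCL2 family genes, Bmf, which encodes a BH3-only activator of apoptosis, rose from 2.58, 2.44 and 2.31 to 16.0, 12.7 and 15.0 TPM (2.17, SE 0.13). Pmaip1 rose as well (0.62), but not without dKO vehicle replicate 1 (0.57). Of 23 genes of the polycomb and DNA methylation machinery, 0 rose (3 were higher at an unadjusted limma p below 0.05, and 1 was called without dKO vehicle replicate 1) and 2 fell. Dnmt3b, a de novo DNA methyltransferase, was at 3.26, 3.73 and 3.64 TPM in wildtype and is listed at 0 in all dKO samples, and the histone demethylase gene Kdm6b fell from 8.52, 6.64 and 6.83 to 4.02, 3.83 and 4.40 TPM.

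Metabolic and cell cycle programmes held few calls or none, beside 4.83% of all genes called. At that share, lists of this size would also hold few calls. Of 47 respiratory chain genes 0 were called (1 higher and 6 lower at an unadjusted p below 0.05 by limma), and the same held for 25 genes of cholesterol synthesis (8 and 1). Of all 16383 genes, 3502 were below that unadjusted p. Slc2a6, a glucose transporter, was the only call among 32 glycolysis genes and fell from 28.8, 29.1 and 28.3 to 14.9, 15.9 and 18.9 TPM. A second gene fell without wildtype vehicle replicate 1, and 1 rose without wildtype vehicle replicate 3 or dKO vehicle replicate 1 or 2. Of 47 genes of DNA replication, 0 were called (21 higher and 0 lower at an unadjusted p below 0.05 by limma), and the median log2 fold change was 0.12, with 40 above 0. Of 43 mitosis genes, 1 was called lower, 1 was higher and 28 were lower at an unadjusted p below 0.05, and the median log2 fold change was −0.16, with 5 above 0. Groups did not overlap for 26 of the 43 mitosis genes on the lower side, beside 11% of all genes, and for 19 of the 47 DNA replication genes on the higher side, beside 15.1%. Without dKO vehicle replicate 1, 1 DNA replication gene was called higher. The call, Cenpf, was at 35.7, 47.6 and 65.3 TPM in wildtype and 30.3, 32.1 and 30.4 TPM in dKO cells, and was lost when any sample but wildtype replicate 1 was left out (largest adjusted p = 0.129).

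Stress and signalling lists also held few calls, beside 3.28% of all genes called higher and 1.55% called lower. Of 20 NF-kB subunits and inhibitors 1 rose and 0 fell (4 higher and 3 lower at an unadjusted p below 0.05 by limma), of 20 p53 targets 1 rose and 1 fell, and of 28 targets of the integrated stress response 2 rose and 1 fell. The NF-kB call, Traf1, was lost when wildtype vehicle replicate 1 or 3 or dKO vehicle replicate 2 or 3 was left out, and with scaling by the median of ratios. The p53 target that rose, Pmaip1, was lost without dKO vehicle replicate 1, and the stress response gene that fell, Slc7a11, without wildtype vehicle replicate 2 or dKO vehicle replicate 1. Those that rose included Ddit4, an inhibitor of mTORC1, from 3.08, 3.20 and 5.51 to 11.9, 12.8 and 11.6 TPM. Of 24 Wnt and Notch pathway genes 0 were called (3 higher and 1 lower at an unadjusted p below 0.05 by limma, beside 3502 of all 16383 genes).

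The neighbours of the edited genes were compared to see whether the edits coincided with changes nearby. Of 28 genes tested within 1 Mb of the edited exon of Ctbp1, 1 was called, beside 4.83% of all genes. It was Gm15513, from 0.77, 0.14 and 0.50 to 2.16, 2.10 and 1.97 TPM. At an unadjusted p below 0.05 by limma, 7 of the 28 were higher and 1 lower, beside 3502 of all 16383 genes in either direction. Below the fold change limit for calls, Spon2 rose from a mean of 0 to 0.39 TPM (adjusted p = 0.0289 by limma). Ywhah likewise rose from 319 to 363 TPM (adjusted p = 0.00854 by limma). Of 15 near the edited exon of Ctbp2, 0 were called (0 higher and 3 lower at an unadjusted p below 0.05 by limma). Among these 15, Oat went from a mean of 103 to 90.2 TPM (adjusted p = 0.0285 by limma). The median log2 fold change of the 20 chromosomes with expressed genes lay between −0.02 and 0.03.

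The MTOB and 4-Cl-HIPP samples were used to see whether the genotype difference recurred. Their group means share no sample with those under vehicle, although they come from the same cells. The spread of each gene was estimated once over the whole series, so calls in the 3 treatments are not independent. A gene with a small estimated spread is favoured in each of them. A fit of only the vehicle samples gave 639 calls, of which 603 were among the 792 called with all samples. Over all genes, 811 (4.95%) were called between dKO and wildtype under MTOB and 515 higher and 259 lower (4.72%) under 4-Cl-HIPP. Of the 538 genes higher under vehicle, 526 were also above wildtype under MTOB and 526 under 4-Cl-HIPP, and 385 (71.6%) and 393 (73.0%) were called in the same direction (3.33% and 3.14% of all genes were called higher). Of the 254 lower genes, 247 and 241 kept their direction, and 160 (63.0%) and 172 (67.7%) were called lower (1.62% and 1.58% of all genes). All 3 treatments called 467 of the genes in the same direction, 334 higher and 133 lower. The median log2 fold change of the higher genes was 1.00 under vehicle, 0.89 under MTOB and 0.89 under 4-Cl-HIPP, and that of the lower genes −0.90, −0.75 and −0.79. Since the genes were chosen for their difference under vehicle, the vehicle medians are not comparable with the others.

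**Figure D5:**
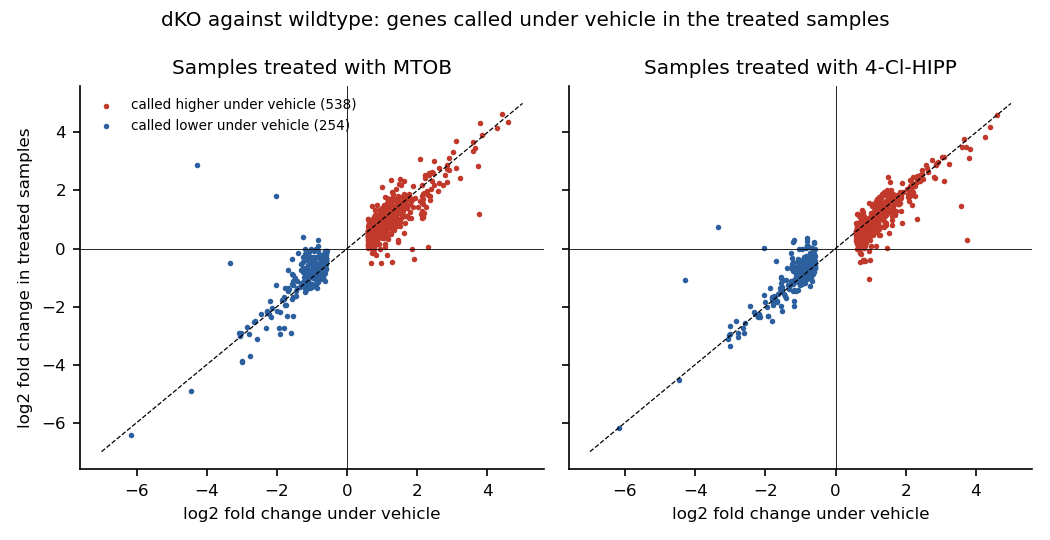
Log2 fold change of dKO against wildtype in samples given MTOB (left) or 4-Cl-HIPP (right), on the y axis, against that under vehicle (x axis) for the 538 genes called higher (red) and 254 called lower (blue) under vehicle. The dashed line marks equal values, and 526 of the red points lie above 0 in each panel.

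Tested directly, the genotype difference changed for few genes with treatment. It differed between MTOB and vehicle for 15 genes (0.0916%), 1 in the positive and 14 in the negative direction (1128 genes at an unadjusted p below 0.05). This count fell to 7 without dKO vehicle replicate 3, 6 without the variance trend and 8 with a replicate block. It differed between 4-Cl-HIPP and vehicle for 0 genes by limma (734 genes at an unadjusted p below 0.05). The median log2 fold change of the interferon-induced genes was 0.91 under vehicle, 0.64 under MTOB and 0.87 under 4-Cl-HIPP, and that of the MHC class II genes 0.49, 0.51 and 0.48.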

How the data were processed

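RNA from J774.1 cells was sequenced by the authors as paired-end reads from unstranded libraries, in 6 groups of 3 samples, and quantified with Salmon 1.9.0 on Gencode M28 (GRCm39) with GC bias correction. Library preparation is given as polyA RNA in the labels and with rRNA depletion in the methods. The authors deposited values for 18204 genes with TPM per sample, the mean normalized count of DESeq2 1.44.0 as a signal of each gene, and the log2 fold changes and adjusted p-values of their inhibitor comparisons. The last 2 kinds of column hold the authors' own results and were not used. TPM keep no depth, so counting precision is unknown, and raw counts were not analysed here.

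Here, genes above the 10th percentile of the mean normalized count (0.222) were fitted on log2(TPM + 1) with 6 group means over all 18 samples (limma 3.58.1, R 4.3.3), with a trend of the variance on that mean and Benjamini-Hochberg adjustment over 16383 genes. Fold changes are on the log2(TPM + 1) scale and understate changes of low genes. Calls needed an adjusted p below 0.05 with more than a 1.5-fold difference (log2 0.585), and differences of the genotype effect between treatments an adjusted p below 0.05. On simulated data for dKO against wildtype under vehicle (16383 genes, 200 changed, 5 runs), 39.4% of 1.5-fold changes, 97.2% of 2-fold and 100% of 3-fold changes passed the adjusted p, and 30.4%, 96.6% and 100% were called. False calls averaged 0 per run without changed genes and 3 to 7.2 with them. The changed genes were drawn only from genes with a mean normalized count well above the filter. Every gene was given the same dispersion, so recovery among low or more variable genes was not measured.

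The groups compared and 51 gene lists, written from general knowledge, were chosen with earlier results of these data known. Named genes are Ctbp1 and Ctbp2, the 15 higher and 15 lower called genes with the largest log2 fold change (no overlap, mean of at least 5 TPM, no Gm or Rik names), up to 6 called members per list, called neighbours within 1 Mb of the edited exons, and the 3 smallest interaction p-values per inhibitor. Other list members and genes given with values were chosen after these were seen. Gene positions and overlaps came from Gencode M39 (18087 of 18204 IDs matched), and promoters from RefSeq (GRCm38.p6). Alternatives were the pseudocount, the filter, scaling, variance trend, the samples fitted, a replicate block and leaving out each sample. Genes that share exons or overlap on the other strand cannot be told apart in unstranded libraries. Figures used matplotlib 3.10.9 in Python 3.11.15. Some members of the lists are counted but not reported by name here.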

Additional observations from a re-analysis of the deposited data

Results flagged for a closer look

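The genotype difference under MTOB was not the same as that under vehicle for 15 genes, by a direct test of the change (limma, adjusted p below 0.05). This count was 8 with a replicate block, 6 without the variance trend and 7 when dKO vehicle replicate 3 was left out. Values are the log2 fold change of dKO against wildtype under MTOB minus that under vehicle. For Ptgs1 it was 0.61 (SE 0.10, adjusted p = 0.0302), as the rise in dKO cells went from 3.10 under vehicle to 3.72 under MTOB. For 3 genes that rose under vehicle the difference became smaller: Bmf by −1.08 (from 2.17 to 1.09), Myo1d, a class I myosin, by −0.76 (from 0.92 to 0.16) and Cxcl16 by −0.39 (from 1.01 to 0.62). For 2 genes that fell under vehicle it became larger, Ets2 by −0.63 (from −1.71 to −2.34) and Pcdhgc3 by −0.45 (from −4.45 to −4.91), the latter listed at 0 in the dKO vehicle samples.

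The other 9 genes were not called under vehicle. The difference was −0.57 for Cpd, −0.62 for Abr, −0.62 for Pou2f2, −0.68 for Marcksl1, −0.36 for Odc1, −0.32 for Ptpn6, −0.42 for Lyn, −0.31 for Rab31 and −0.41 for Adar, an RNA-editing enzyme that interferon induces. Below the fold change limit, Marcksl1 (0.40), Rab31 (0.30), Adar (0.47) and Ptpn6 (0.12) passed the adjusted p under vehicle by limma. Under MTOB these were at −0.27, −0.02, 0.06 and −0.20. Cpd, Abr, Pou2f2, Odc1 and Lyn did not pass under vehicle. They went from 0.04, 0.13, −0.10, −0.06 and 0.04 to −0.53, −0.50, −0.72, −0.42 and −0.37 under MTOB. Lyn and Ptpn6 encode a kinase and a phosphatase of inhibitory receptor signalling in myeloid cells. For 4-Cl-HIPP the smallest p-values belonged to 2900009J06Rik (−1.98, adjusted p = 0.163), Coro2a (1.442, adjusted p = 0.253) and Timm17b (−0.85, adjusted p = 0.253), none of which passed.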

How the results depend on the processing

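Ctbp1 kept its fall under every alternative tried, at −3.115 to −3.002 with each vehicle sample left out, and Ctbp2 stayed between −0.32 and −0.25 (largest adjusted p = 0.0258). With a vehicle sample left out, 706 to 746 genes were called (494 to 512 higher, 212 to 240 lower), beside 792 with all samples. How many of these were among the 792 was not counted. A pseudocount of 5 gave 426 calls (316 higher, 110 lower), 422 of them shared, since it shrinks low genes, and 43 of 141 named calls were lost. A pseudocount of 0.1 gave 923 calls and a fit of only the 6 compared samples 639, of which 603 were shared. Scaling by the median of ratios moved the median of all genes by 0.01 (783 calls, 510 higher). Leaving out a sample lost 22 of the named calls. Counts that a pseudocount of 5 lowered by more than 1.5 times included those of the higher Fc, complement and phagocytic receptors (10 to 5), MHC class I genes (4 to 1), semaphorin and guidance genes (6 to 3), lysosome genes (5 to 2), NRF2 genes (3 to 1), BCL2 family genes (2 to 1), chemokine receptors (2 to 1) and macrophage lineage factors (4 to 2, and likewise those that fell). The 15 MTOB differences became 6 without the variance trend and 8 with a replicate block, and 7 (without dKO vehicle replicate 3) to 20 (without dKO MTOB replicate 3) with a sample left out. For 4-Cl-HIPP, 2 genes passed with only the compared groups, and 0 to 3 with a sample left out (3 without wildtype vehicle replicate 2). The cause was not tested. Samples with the same replicate number had correlated deviations of 0.14, 0.04 and 0.04 between genotypes, so the numbers were not taken as pairs. The replicate block gave 778 calls, 758 of them shared. With TPM alone, read depth could not be weighed.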

Other observations

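The genes S100a10 and S100a6, relatives of S100a11 that were chosen after their values were seen, were also higher in dKO cells. S100a10, which forms a complex with annexin A2, rose from 184, 194 and 174 to 549, 530 and 547 TPM (log2 fold change 1.55, SE 0.06, adjusted p = 2.43e-11 by limma), and S100a6 from 788, 816 and 782 to 1249, 1212 and 1315 TPM (0.66, SE 0.04). Neither overlapped between genotypes.

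In lipid and redox metabolism, Lpl, which encodes lipoprotein lipase, rose from 132, 139 and 130 to 255, 251.5 and 247 TPM. It was 1 of 2 LXR and lipid efflux genes called higher of 18 (11.1%), beside 3.28% of all genes. The other, Apoc2, was lost when any vehicle sample but dKO vehicle replicate 3 was left out (largest adjusted p = 0.164). Taldo1, a transaldolase of the pentose phosphate pathway, rose from 233, 260 and 259 to 410, 440 and 439 TPM. Of 28 NRF2 antioxidant genes 3 (10.7%) rose and 1 (3.57%) fell (0 fell without wildtype vehicle replicate 2 or dKO vehicle replicate 1). Of 38 lysosome and TFEB targets, 5 (13.2%) rose and 1 (2.63%), Gpnmb, fell, beside 3.28% and 1.55% of all genes. Tpp1, a lysosomal peptidase, went from 35.8, 38.7 and 40.3 to 67.5, 70.6 and 66.0 TPM. The 5 became 3 without wildtype vehicle replicate 1, 2 or 3 or dKO vehicle replicate 2.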
